A study of Homo sapiens with 12 samples.

Results

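The aminoacyl-tRNA synthetases are the enzymes that load each tRNA with its amino acid. Their 36 human genes, 20 for the cytosolic enzymes and 16 for the mitochondrial ones, were listed by symbol. The 36 genes were drawn from 35581 genes with estimated counts, and all 36 were among the 15159 genes that passed the filter on low counts. They were measured in WM-266-4, a human melanoma cell line, by stranded poly(A) RNA sequencing. All cells carried a stable lentiviral knock-down of TYRO3, a receptor tyrosine kinase that is cleaved at the cell surface by ADAM proteases and then within the membrane by γ-secretase. According to the labels, the cells were transfected with the pEZY-myc-his plasmid holding GFP (the control, called GFP below), wild-type TYRO3 (WT), TYRO3 ΔGS (I449A), a γ-secretase site mutant, or TYRO3 ΔADAM (P408A/L409P/G419P), an ADAM site mutant. The study's text describes the control as an empty plasmid rather than one with GFP, so what the control cells expressed is uncertain, and with it whether the comparisons below set TYRO3 against GFP or against an empty plasmid. Each of the 4 groups had 1 library in each of 3 experiments, 12 libraries in all. The experiments are numbered in the labels, but nothing says that the cultures within an experiment were started separately, so the p-values measure only the spread between these libraries. The cells were starved of serum overnight, TYRO3 was expressed from a plasmid rather than from its own locus, and the knock-down was kept under puromycin at 1 µg/ml, which limits the groups as models of the endogenous receptor.

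Total estimated counts were 4008293 in the GFP library of experiment 1 and between 18365999 and 38184838 in the other 11 libraries, so the least precise values are those of that control. TYRO3 stood at 31.4 ± 4.46 TPM (transcripts scaled to library total and transcript length; SD, n = 3) with GFP, 1151 ± 475 with WT, 1172 ± 683 with ΔGS and 1031 ± 657 with ΔADAM, which separates the GFP libraries from the TYRO3 libraries but does not tell the 3 constructs apart. The bases at the mutated sites were not examined here. TYRO3 was highest in experiment 1, at 1687, 1959 and 1789 TPM with WT, ΔGS and ΔADAM, against 640.5 to 988 TPM in the TYRO3 libraries of experiments 2 and 3. Melanocyte lineage genes were detected, among them PMEL, a melanosome matrix protein, at 1128 TPM and SOX10, a lineage transcription factor, at 327 TPM in the mean of the GFP libraries. KRT5, an epithelial keratin, was at 0 in all 12 libraries, and the 4 epithelial, 3 leukocyte and 2 endothelial markers summed to at most 5.35, 2.89 and 1.78 TPM in any library.

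A synthetase activates its amino acid with ATP and transfers it to the matching tRNA. The family falls into class I and class II by the fold of the catalytic domain. In the cytosol several of the enzymes are held together with the scaffold proteins AIMP1, AIMP2 and EEF1E1 in the multi-synthetase complex, while the others are free. A second, nuclear-encoded set serves the translation system of mitochondria. GARS and KARS each encode both a cytosolic and a mitochondrial form and are counted here with the cytosolic genes, and mitochondria make glutaminyl-tRNA through the GatCAB amidotransferase rather than through a synthetase of their own. Many cytosolic synthetase genes are known targets of ATF4, the transcription factor of the amino acid response, which binds with C/EBP proteins to elements of the form TGATGNAA.

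The promoter sequences of the genes are shown because the members differed in whether they hold such an element. RefSeq windows from 250 bases before to 50 bases after a transcription start (GRCh38.p14) were matched for 16 of the 20 cytosolic and 14 of the 16 mitochondrial genes. DARS, LARS, VARS, YARS, AARS2 and VARS2 were not matched. TGATGNAA, read on both strands, was in a window of 7 of the 16 cytosolic genes (AARS, CARS, GARS, IARS, MARS, NARS and TARS) and of 1 of the 14 mitochondrial genes (YARS2). It was in a window of 4.46% of the 27305 genes with windows. The stricter form TGATGCAA, contained in the first motif, was in 6 of the 16 and 0 of the 14, against 1.08% of all genes. The E-box CACGTG, a palindrome, was in 1 of the 16 (IARS) and 3 of the 14 (CARS2, EARS2 and MARS2), against 8.77% of all genes. In the stretches of 30 bases below, written 5′ to 3′ on the strand of the gene, the capitals mark the match.
AARS (chr16:70289675-70289704): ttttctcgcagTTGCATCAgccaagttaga
CARS (chr11:3057407-3057436): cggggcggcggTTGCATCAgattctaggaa
GARS (chr7:30594834-30594863): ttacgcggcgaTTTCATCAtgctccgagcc
IARS (chr9:92293692-92293721): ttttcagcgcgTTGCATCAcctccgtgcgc
MARS (chr12:57488053-57488082): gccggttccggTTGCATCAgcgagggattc
NARS (chr18:57621804-57621833): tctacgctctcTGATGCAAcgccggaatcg
TARS (chr5:33440956-33440985): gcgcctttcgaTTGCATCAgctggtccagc
AARS, CARS, IARS, MARS and TARS share the letters TTGCATCA, NARS has their reverse complement TGATGCAA, and GARS has TTTCATCA. In CARS, MARS and TARS the match lies within 4 bases of the start, at -2, -4 and 2, whereas in AARS it begins at -187. A match is a description of the letters and not a mapped binding site.

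The whole windows of the 3 cytosolic genes with the largest fold changes below are given next. CARS (minus strand, chr11:3057374-3057673) and GARS (plus strand, the second of its windows, chr7:30594628-30594927) hold TGATGNAA, in capitals, and the first window of WARS (minus strand, chr14:100376278-100376577) does not.
CARS: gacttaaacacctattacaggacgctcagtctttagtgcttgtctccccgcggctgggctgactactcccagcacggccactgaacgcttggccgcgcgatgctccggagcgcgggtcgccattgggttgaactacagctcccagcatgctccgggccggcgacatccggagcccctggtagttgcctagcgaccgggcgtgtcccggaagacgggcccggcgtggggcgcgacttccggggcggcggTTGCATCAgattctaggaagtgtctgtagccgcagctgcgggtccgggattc
GARS: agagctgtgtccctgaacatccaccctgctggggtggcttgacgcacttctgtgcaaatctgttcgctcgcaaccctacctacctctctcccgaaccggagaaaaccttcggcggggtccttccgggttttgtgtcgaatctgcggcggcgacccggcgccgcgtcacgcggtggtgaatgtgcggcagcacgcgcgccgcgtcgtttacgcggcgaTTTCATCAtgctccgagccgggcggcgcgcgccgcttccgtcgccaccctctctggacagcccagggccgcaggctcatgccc
WARS: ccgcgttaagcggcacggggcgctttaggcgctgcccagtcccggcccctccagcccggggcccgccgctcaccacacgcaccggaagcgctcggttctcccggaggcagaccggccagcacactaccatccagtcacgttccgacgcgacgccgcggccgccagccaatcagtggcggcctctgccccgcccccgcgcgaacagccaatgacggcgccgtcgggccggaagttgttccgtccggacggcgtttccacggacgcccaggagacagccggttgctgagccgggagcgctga
Of the 5 cytosolic genes that were called higher below and had a window, 2 held TGATGNAA (CARS and GARS) and the other 3 (EPRS, SARS and WARS) did not.

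Levels per length were compared between the genes on the TPM scale. In the GFP libraries WARS, the tryptophan enzyme, also known as an interferon-induced gene, was the most abundant of the cytosolic synthetases at 784 ± 231 TPM (SD, n = 3). It was followed by TARS (threonine) at 274 ± 34.2 TPM, GARS (glycine) at 255 ± 75.8 TPM and NARS (asparagine) at 239 ± 32.8 TPM. The ranges of TARS, GARS and NARS overlapped, although TARS was above NARS in each of the 3 GFP libraries. FARSB, a subunit of the phenylalanine enzyme, was the lowest of the 20 at 19.4 ± 1.90 TPM. Among the mitochondrial genes IARS2 (isoleucine) led with 187 ± 17.2 TPM, HARS2 (histidine) followed with 59.6 ± 1.15 TPM and PARS2 (proline) was lowest with 4.48 ± 1.19 TPM. PARS2 also had the smallest estimated count of any member in any library, 23.

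Summed over the 20 cytosolic genes, the levels were 3160, 3745 and 4217 TPM in the GFP libraries of experiments 1, 2 and 3. They were 5723, 4926 and 5615 TPM with WT, 5220, 5176 and 5595 TPM with ΔGS and 5647, 5022 and 6232 TPM with ΔADAM. Each of the 9 TYRO3 libraries therefore lay above each GFP library. The 16 mitochondrial genes summed to 582 ± 4.53 TPM with GFP, 551 ± 35.3 with WT, 533 ± 25.2 with ΔGS and 529 ± 8.26 with ΔADAM (SD, n = 3). The ratio of the cytosolic to the mitochondrial sum was 6.38 ± 0.941 with GFP and 9.88 ± 1.15, 10.0 ± 0.823 and 10.6 ± 1.08 with WT, ΔGS and ΔADAM. WARS made up 20.9 ± 3.97% of the cytosolic sum with GFP and 28.3 ± 2.76%, 26.6 ± 3.11% and 28.3 ± 2.97% with WT, ΔGS and ΔADAM, and without WARS the cytosolic sum was 2642 to 3282 TPM with GFP and 3421 to 4665 TPM with TYRO3. In bulk RNA, fewer cells of a type and less RNA per cell cannot be told apart.

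**Figure D1:**
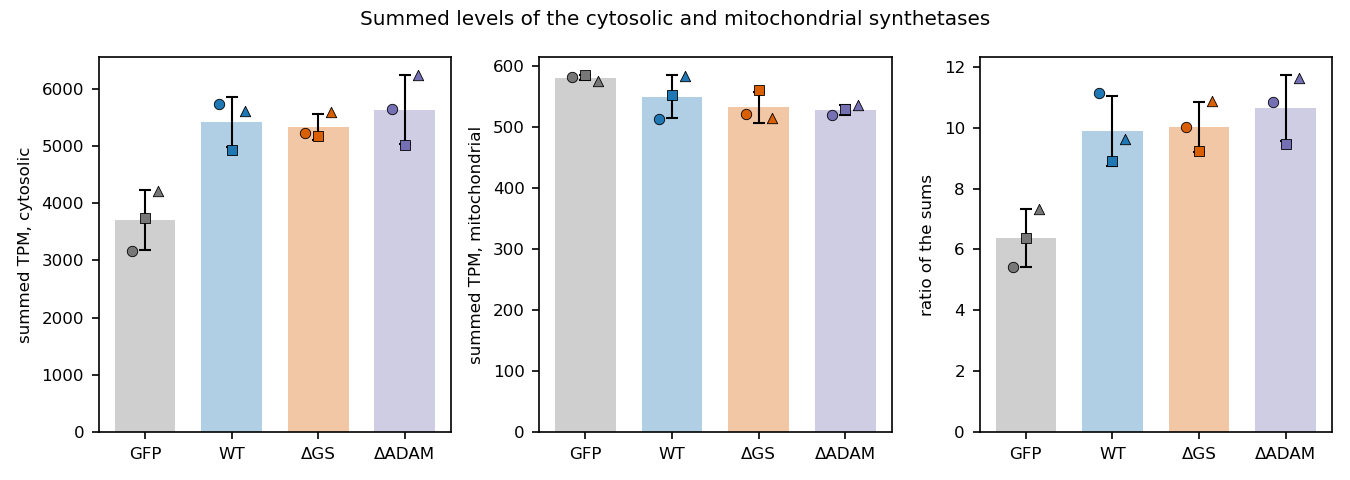
Summed TPM of the 20 cytosolic genes (left), of the 16 mitochondrial genes (middle) and their ratio (right) by group. Bars are means, whiskers 1 SD (n = 3), and the circle, square and triangle are the libraries of experiments 1, 2 and 3. The GFP libraries lie at 3160 to 4217 TPM in the cytosolic panel, below all 9 TYRO3 libraries.

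Each TYRO3 group was then compared with GFP by edgeR's quasi-likelihood test on the estimated counts, fitted over all genes with the experiment as a block. To be called, a gene had to pass the study's thresholds, a fold of more than 1.5 in either direction together with a p of at most 0.05 after Benjamini-Hochberg adjustment over all genes (the edgeR adjusted p below). The 3 comparisons share the GFP libraries, so they are not independent of each other. Of the 20 cytosolic genes 5 were called higher with WT (CARS, EPRS, GARS, SARS and WARS), 5 with ΔGS (CARS, GARS, SARS, WARS and YARS) and 6 with ΔADAM (all 6 of these), and none was called lower. Without the WT library of experiment 1 the count with WT was 2, and over all fits that left out 1 library it lay between 2 and 6. Among all genes tested 1.81%, 2.92% and 3.27% were called higher and 0.871%, 1.93% and 2.06% lower in the same 3 comparisons. By the edgeR adjusted p alone, 9, 9 and 10 cytosolic genes were higher, against 2.42%, 4.72% and 5.17% of all genes. In the lower direction 0, 0 and 2 cytosolic genes passed, against 1.85%, 4.66% and 5.65% of all genes. The median log2 fold change of the 20 genes was 0.24, 0.22 and 0.24, whereas over all genes tested it was -0.003, 0.007 and -0.002.

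Of the 16 mitochondrial genes, none was called higher and 1, SARS2 with ΔADAM, was called lower. In the same comparisons 1.81%, 2.92% and 3.27% of all genes were called higher and 0.871%, 1.93% and 2.06% lower. A count of 1 among 16 genes is near that background. By the edgeR adjusted p alone, 0, 1 and 0 mitochondrial genes were higher and 2, 2 and 4 lower with WT, ΔGS and ΔADAM. The shares of all genes that passed this way were 2.42%, 4.72% and 5.17% higher and 1.85%, 4.66% and 5.65% lower. Their median log2 fold changes were -0.05, -0.07 and -0.11.

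The calls depended on the block. The study corrected for a batch difference between experiment 1 and the other experiments, and a term for that split was fitted here in edgeR as an alternative. With this batch term in place of the replicate block, 0, 1 and 1 cytosolic genes were called with WT, ΔGS and ΔADAM, the 1 being WARS (edgeR adjusted p = 0.0460 and 0.0352). SARS2 was called lower with ΔADAM under that batch term too (edgeR adjusted p = 0.0407). Over all genes that fit called 6, 69 and 174 genes, against 407, 734 and 807 with the block. The fold changes themselves moved little, with medians over the 20 cytosolic genes of 0.24, 0.22 and 0.24.

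**Figure D2:**
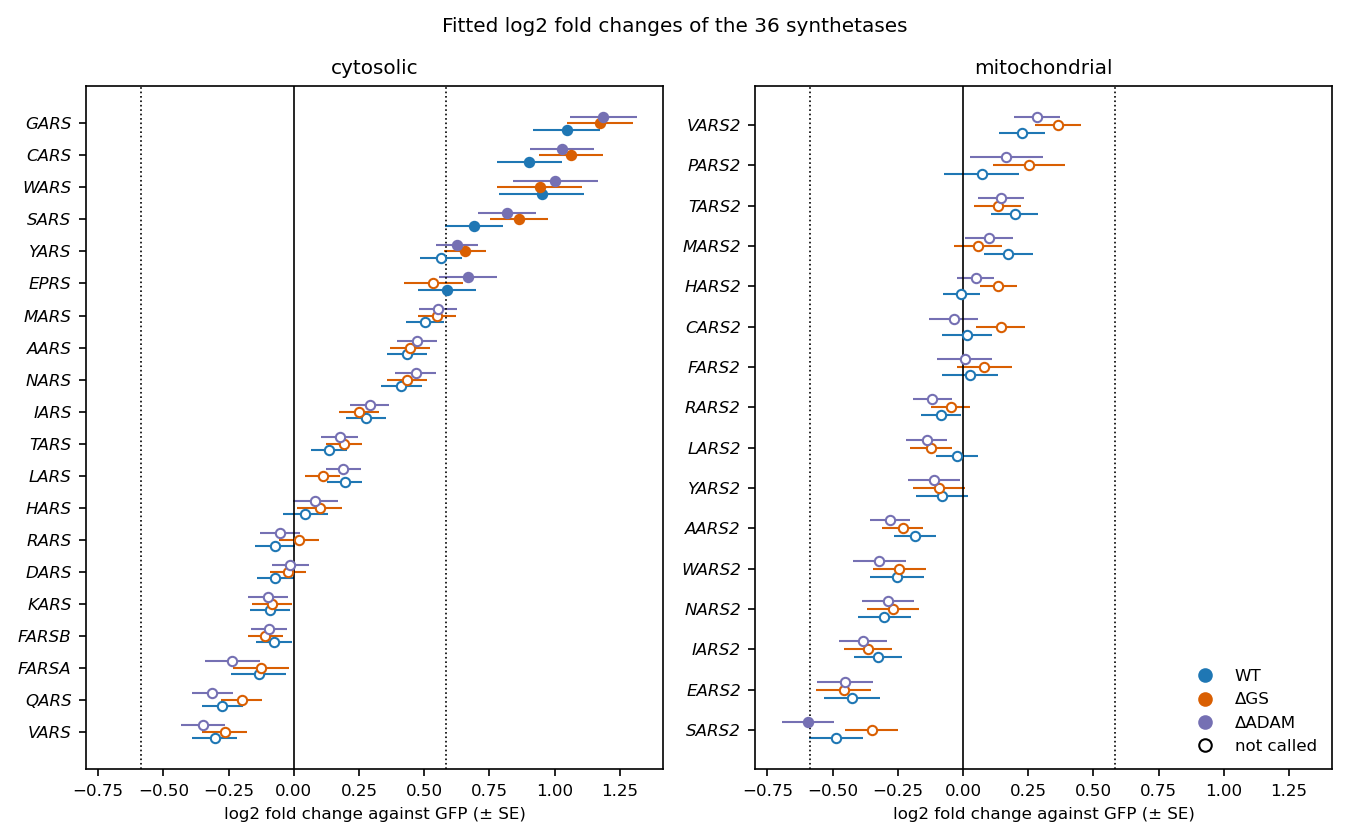
Fitted log2 fold changes against GFP (points) with their standard errors (bars) for the 20 cytosolic (left) and 16 mitochondrial genes (right), with WT, ΔGS and ΔADAM in separate colours. Filled points were called, open points were not, and the dotted lines mark a fold of 1.5 in either direction. GARS is at the top, with log2 fold changes of 1.05, 1.18 and 1.19, and SARS2 at the bottom, with -0.49, -0.35 and -0.59.

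GARS (ENSG00000106105, chr7:30594681-30634033, plus strand) stood at 311, 318 and 499 CPM (counts scaled to library size) in the GFP libraries of experiments 1, 2 and 3. It stood at 895, 551 and 883 CPM with WT, 777, 664 and 1129 CPM with ΔGS and 842, 618 and 1148 CPM with ΔADAM. The GFP library of experiment 3 was the highest of its group, and all 9 TYRO3 libraries were above it. GARS rose by 1.05 ± 0.13, 1.18 ± 0.13 and 1.19 ± 0.13 on the log2 scale (SE; edgeR adjusted p = 0.00281, 0.00116 and 0.000937), the largest fold changes of the family.

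CARS (ENSG00000110619, chr11:3000922-3057613, minus strand) charges cysteine tRNA. Its levels were 97.4, 100.2 and 139.8 CPM with GFP, 249.6, 157 and 231 CPM with WT, 214, 196 and 305 CPM with ΔGS and 233, 182 and 283 CPM with ΔADAM. No TYRO3 library overlapped the GFP libraries, and within experiment 2 the differences were the smallest for all 3 constructs. CARS rose by 0.90 ± 0.12, 1.06 ± 0.12 and 1.03 ± 0.12 on the log2 scale (edgeR adjusted p = 0.00491, 0.00135 and 0.00156).

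WARS (ENSG00000140105, chr14:100333788-100376805, minus strand) was the most abundant member in every library. It stood at 693, 1123 and 1296 CPM with GFP, 2137, 1941 and 1845 CPM with WT, 1922, 1865 and 2139 CPM with ΔGS and 2039, 2025 and 2106 CPM with ΔADAM. The TYRO3 libraries lay close together, from 1845 to 2139 CPM, and the GFP libraries varied more, with experiment 1 lowest. The log2 difference from GFP was accordingly 1.62 with WT in experiment 1 and 0.79 and 0.51 in experiments 2 and 3. WARS rose by 0.95 ± 0.16, 0.94 ± 0.16 and 1.00 ± 0.16 on the log2 scale (edgeR adjusted p = 0.0134, 0.00881 and 0.00597). The call with WT was lost when either the WT library of experiment 1 or that of experiment 2 was left out, and the log2 fold change of WARS with WT lay between 0.70 and 1.13 over the 12 fits that each left out 1 library.

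SARS (ENSG00000031698, chr1:109213918-109238169, plus strand) is the cytosolic serine enzyme. It stood at 113, 117 and 170.1 CPM with GFP, 241, 163 and 244 CPM with WT, 215, 204 and 317 CPM with ΔGS and 231, 189 and 291 CPM with ΔADAM. The WT library of experiment 2 lay below the GFP library of experiment 3, so these 2 groups overlapped, while ΔGS and ΔADAM did not overlap GFP. SARS rose by 0.69 ± 0.11, 0.86 ± 0.11 and 0.82 ± 0.11 on the log2 scale (edgeR adjusted p = 0.00972, 0.00207 and 0.00288). Without the WT library of experiment 1 the fold with WT was no longer called, at a log2 fold change of 0.54.

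YARS (ENSG00000134684, chr1:32775237-32818153, minus strand), the tyrosine enzyme, passed the fold threshold with both mutants. Its levels were 169, 152 and 224 CPM with GFP, 279, 218 and 308 CPM with WT, 254, 241 and 369 CPM with ΔGS and 273, 232 and 337 CPM with ΔADAM. The WT library of experiment 2 overlapped the GFP range, and the mutant libraries did not. YARS rose by 0.66 ± 0.08 with ΔGS and 0.63 ± 0.08 with ΔADAM on the log2 scale (edgeR adjusted p = 0.00171 and 0.00220). With WT the log2 fold change was 0.57 ± 0.08 (edgeR adjusted p = 0.00560), a fold of 1.48, just under the threshold.

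EPRS (ENSG00000136628, chr1:219968601-220046658, minus strand) joins the glutamate and proline enzymes in 1 polypeptide and belongs to the multi-synthetase complex. It stood at 328, 344 and 457 CPM with GFP, 625, 460.5 and 617 CPM with WT, 558, 521 and 546 CPM with ΔGS and 628, 486 and 691 CPM with ΔADAM. The groups did not overlap, although the WT library of experiment 2 lay just above the GFP library of experiment 3. EPRS rose by 0.59 ± 0.11 with WT and 0.67 ± 0.11 with ΔADAM on the log2 scale (edgeR adjusted p = 0.0192 and 0.00676), and with WT it only just passed the fold threshold. With ΔGS its log2 fold change was 0.54 ± 0.11 (edgeR adjusted p = 0.0173), a fold of 1.45. The call with WT was lost without the GFP library of experiment 1 and without the WT library of experiment 1 or 2, and the call with ΔADAM was lost without the GFP library of experiment 1 or the ΔADAM library of experiment 3.

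**Figure D3:**
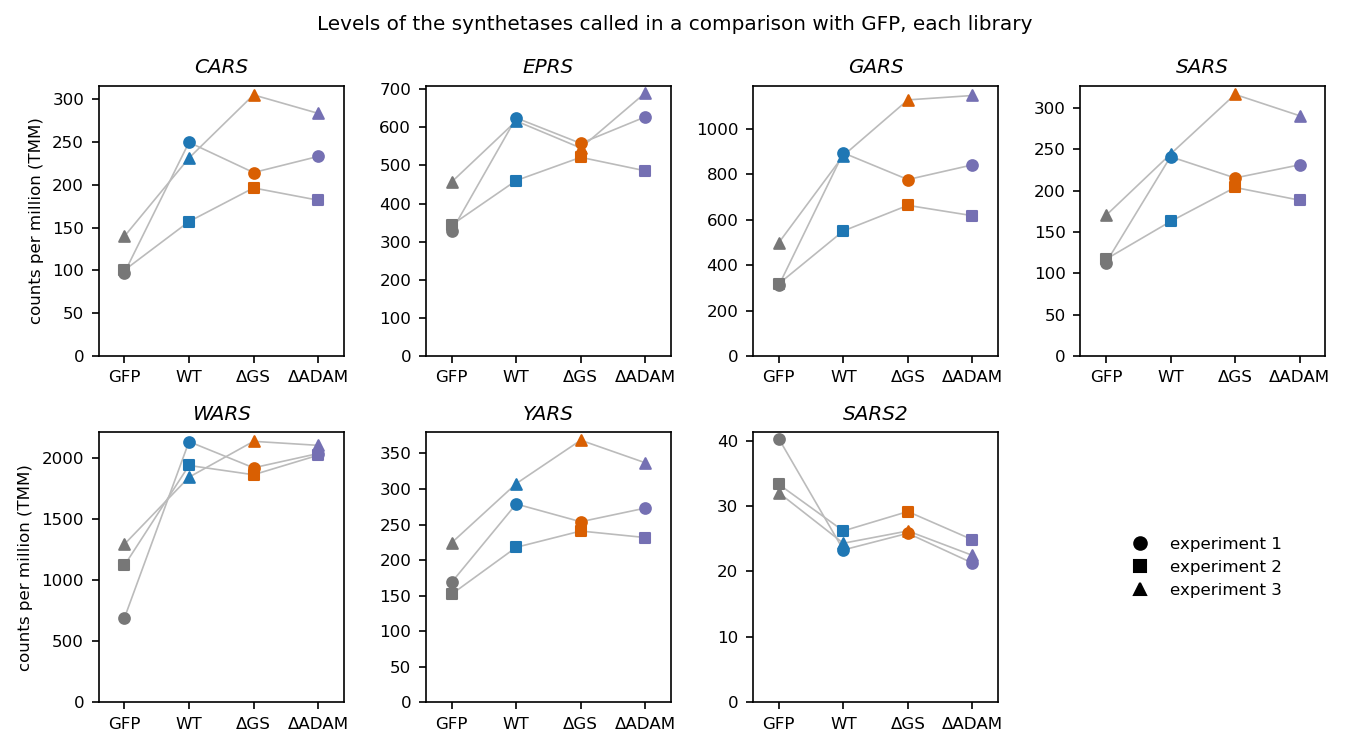
CPM (scaled by TMM) of the 7 synthetase genes called in at least 1 comparison, each library as a point, with experiments 1, 2 and 3 as circles, squares and triangles and lines joining the libraries of an experiment. In the 6 cytosolic genes the GFP library of experiment 3 is the highest of the 3 GFP libraries, and in SARS2 all 9 TYRO3 libraries lie below the GFP libraries.

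The 3 uncalled cytosolic genes with the largest fold changes were MARS (methionine), AARS (alanine) and NARS (asparagine). MARS stood at 277, 258 and 354 CPM with GFP, 428, 365 and 462 CPM with WT, 396, 389 and 517 CPM with ΔGS and 407, 388 and 507 CPM with ΔADAM, with no overlap between GFP and the other groups. Its log2 fold changes were 0.51, 0.55 and 0.55 (SE 0.07 each; edgeR adjusted p = 0.00591, 0.00237 and 0.00246), under the fold threshold. AARS stood at 194, 207 and 241 CPM with GFP, 305, 252 and 314 CPM with WT, 287, 269.7 and 320.0 CPM with ΔGS and 299.9, 272 and 321 CPM with ΔADAM, again without overlap. Its log2 fold changes were 0.44, 0.45 and 0.47 (SE 0.08 each; edgeR adjusted p = 0.0145, 0.00859 and 0.00597). NARS stood at 360.2, 358 and 459 CPM with GFP, 545, 438 and 587 CPM with WT, 500.5, 482 and 609 CPM with ΔGS and 523, 457 and 656 CPM with ΔADAM. The WT and ΔADAM libraries of experiment 2 lay within the GFP range, and the log2 fold changes of NARS were 0.41, 0.43 and 0.47 (SE 0.08 each; edgeR adjusted p = 0.0188, 0.00996 and 0.00648).

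Among the other cytosolic genes, IARS (isoleucine) had log2 fold changes of 0.28, 0.25 and 0.29 and passed the edgeR adjusted p with ΔADAM alone (0.0342). QARS (glutamine) had -0.27, -0.20 and -0.31 and VARS (valine) -0.30, -0.26 and -0.35, and these also passed with ΔADAM alone (edgeR adjusted p = 0.0307 and 0.0280). The other 8 genes, DARS, FARSA, FARSB, HARS, KARS, LARS, RARS and TARS, did not pass in any of the 3 comparisons, and their log2 fold changes lay between -0.24 (FARSA with ΔADAM) and 0.20 (LARS with WT). TARS, with the match at its start, had 0.14, 0.19 and 0.18.

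By role, the 8 enzymes of the multi-synthetase complex counted 1, 0 and 1 genes called higher with WT, ΔGS and ΔADAM (EPRS) and the 12 free cytosolic enzymes 4, 5 and 5. Their median log2 fold changes were 0.06, 0.06 and 0.09 for the complex and 0.42, 0.44 and 0.47 for the free enzymes. The scaffold genes AIMP1, AIMP2 and EEF1E1 were not called, with log2 fold changes from -0.15 to 0.24. By catalytic class, 3, 3 and 4 of the 19 class I genes and 2, 2 and 2 of the 17 class II genes were called higher, both compartments counted. EPRS, which joins the glutamate and proline enzymes, was counted in class I alone, so its calls with WT and ΔADAM fall there. Among all genes tested 1.81%, 2.92% and 3.27% were called higher.

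The mitochondrial serine enzyme SARS2 (ENSG00000104835, chr19:38915266-38930896, minus strand) went the other way from its cytosolic counterpart SARS. It stood at 40.3, 33.3 and 32.0 CPM with GFP, 23.3, 26.2 and 24.3 CPM with WT, 25.8, 29.2 and 26.2 CPM with ΔGS and 21.3, 24.9 and 22.5 CPM with ΔADAM. All 9 TYRO3 libraries were below the GFP libraries in CPM. In TPM they overlapped, with 34.3 TPM in the GFP library of experiment 3 and 40.9 TPM in the WT library of experiment 1. SARS2 fell by 0.59 ± 0.10 on the log2 scale with ΔADAM (edgeR adjusted p = 0.00715), a fold of 0.662. With WT its log2 fold change was -0.49 ± 0.10 (edgeR adjusted p = 0.0286) and with ΔGS -0.35 ± 0.10 (edgeR adjusted p = 0.0523), neither past the fold threshold. The call with ΔADAM was lost without the GFP library of experiment 1, the ΔGS library of experiment 3 or the ΔADAM library of experiment 1, with log2 fold changes between -0.69 and -0.48 over the fits that left out 1 library. It was also lost with the size factors of DESeq2 and in DESeq2 itself.

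The 3 uncalled mitochondrial genes with the largest fold changes were EARS2, IARS2 and VARS2. EARS2 (glutamate) stood at 61.2, 51.5 and 59.2 CPM with GFP, 35.9, 43.3 and 47.5 CPM with WT, 39.9, 43.4 and 40.4 CPM with ΔGS and 39.6, 44.2 and 40.4 CPM with ΔADAM. Every TYRO3 library was below the GFP libraries in CPM, and the log2 fold changes were -0.43, -0.46 and -0.45 (SE 0.11 each; edgeR adjusted p = 0.0498, 0.0253 and 0.0246). IARS2 stood at 430.2, 418 and 453 CPM with GFP, 283, 358 and 404 CPM with WT, 307, 362 and 343 CPM with ΔGS and 304, 353 and 343 CPM with ΔADAM. It too was below GFP in every TYRO3 library in CPM, with log2 fold changes of -0.33, -0.36 and -0.38 (SE 0.09 each; edgeR adjusted p = 0.0696, 0.0323 and 0.0259). In TPM both genes overlapped GFP. EARS2 was at 26.4 TPM with GFP and 28.5 TPM with WT in experiment 3. IARS2 was at 167 TPM with GFP in experiment 1 and 188 TPM with WT in experiment 3. VARS2 (valine) lay above the GFP libraries instead. It stood at 54.5, 56.6 and 55.0 CPM with GFP, 76.6, 63.0 and 58.1 CPM with WT, 76.0, 67.7 and 72.5 CPM with ΔGS and 75.6, 65.2 and 64.3 CPM with ΔADAM. Its log2 fold changes were 0.23, 0.36 and 0.28 (SE 0.09 each; edgeR adjusted p = 0.162, 0.0278 and 0.0598).

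AARS2 (alanine) passed the edgeR adjusted p with ΔADAM (-0.28, 0.0437) and in no other comparison. The 11 remaining mitochondrial genes, CARS2, FARS2, HARS2, LARS2, MARS2, NARS2, PARS2, RARS2, TARS2, WARS2 and YARS2, did not pass in any comparison with GFP, and their log2 fold changes lay between -0.32 (WARS2 with ΔADAM) and 0.25 (PARS2 with ΔGS).

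Amino acids with separate genes in both compartments were set side by side for ΔADAM, as log2 fold changes against GFP with no test of the difference within a pair. ΔADAM had the lowest mitochondrial median (-0.11, against -0.05 with WT and -0.07 with ΔGS) and the only mitochondrial call. The pairs below therefore do not stand for those with WT or ΔGS. SARS and SARS2 had 0.82 and -0.59, CARS and CARS2 1.03 and -0.04, WARS and WARS2 1.00 and -0.32, and YARS and YARS2 0.63 and -0.11. AARS and AARS2 had 0.47 and -0.28, NARS and NARS2 0.47 and -0.29, IARS and IARS2 0.29 and -0.38, and MARS and MARS2 0.55 and 0.10. EPRS, with its glutamate and proline enzymes, had 0.67, where EARS2 had -0.45 and PARS2 0.17. The values of HARS and HARS2 (0.08 and 0.05), TARS and TARS2 (0.18 and 0.15), RARS and RARS2 (-0.05 and -0.12) and LARS and LARS2 (0.19 and -0.14) lay closer together. VARS and VARS2 had -0.35 and 0.28, and the phenylalanine subunit FARSA had -0.24 and FARSB -0.09 where FARS2 had 0.01, so in these the cytosolic gene had the lower value.

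Within experiments, the log2 CPM of 12, 11 and 12 of the 20 cytosolic genes was higher than that of GFP in each of the 3 experiments with WT, ΔGS and ΔADAM, against 24.2%, 23.9% and 24.8% of all genes. It was lower in each experiment for 6, 5 and 5 cytosolic genes, against 26.5%, 22.0% and 27.1% of all genes. The same counts for the 16 mitochondrial genes were 3, 5 and 3 higher and 7, 6 and 8 lower. The median difference of the 20 cytosolic genes with WT was 0.31 in experiment 1 and 0.21 and 0.22 in experiments 2 and 3. With ΔGS it was 0.23, 0.28 and 0.23, and with ΔADAM 0.28, 0.24 and 0.23. The mitochondrial medians were -0.18, -0.06 and -0.06 with WT, -0.16, -0.03 and -0.06 with ΔGS and -0.11, -0.11 and -0.12 with ΔADAM. Experiment 1, which holds the shallow GFP library and the highest TYRO3 levels, gave the largest differences of the 6 called cytosolic genes with WT, such as GARS at 1.53 against 0.79 and 0.82 in experiments 2 and 3. The part of the control's depth and of the TYRO3 level in this was not tested.

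**Figure D4:**
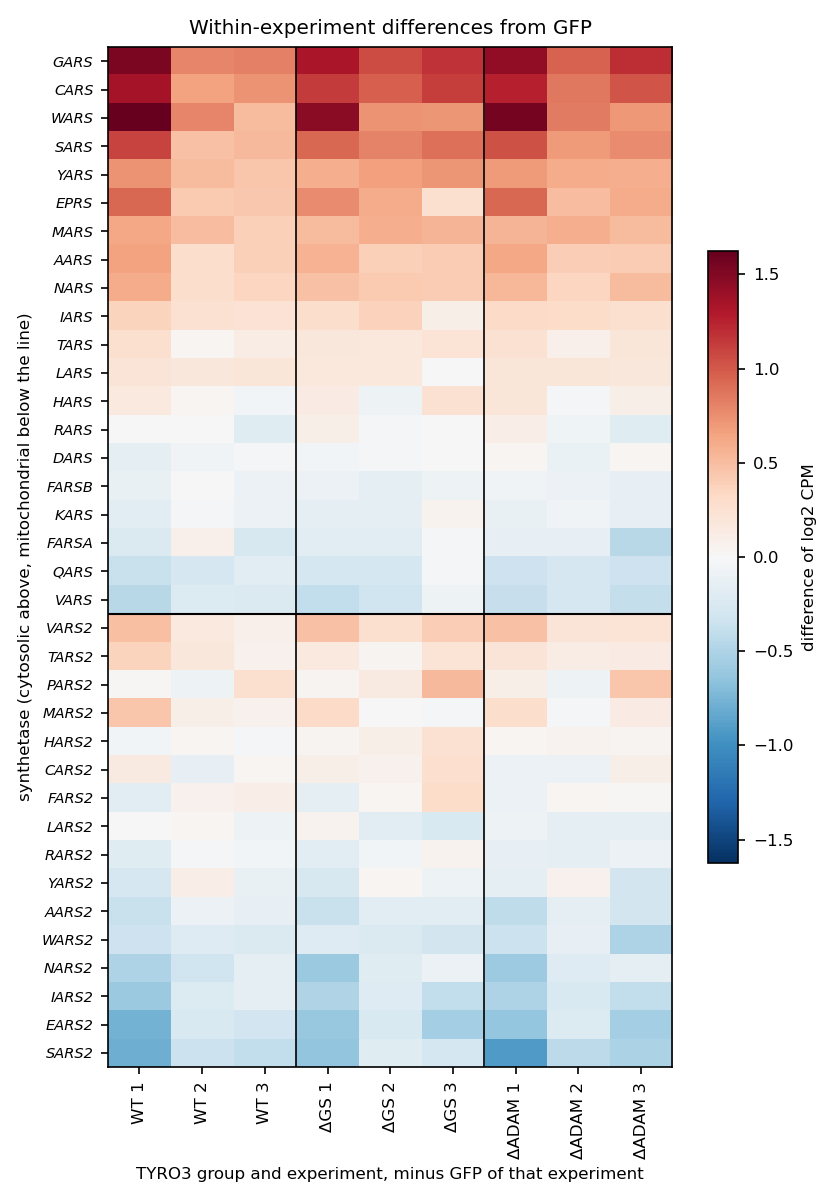
Difference in log2 CPM between each TYRO3 library and the GFP library of its experiment, as colour from blue (lower) to red (higher), with the 9 TYRO3 libraries as columns and the 36 genes as rows, cytosolic above the line. GARS, CARS, WARS, SARS, YARS and EPRS are red in all 9 columns, and SARS2, EARS2 and IARS2 are blue in all 9.

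Whether cleavage of TYRO3 was related to the synthetase levels was addressed by comparing WT with the mean of both mutants, and the mutants with each other. With edgeR no gene in the data was called in either comparison (0% of 15159), and 231 and 218 genes had an unadjusted edgeR p under 0.05. DESeq2 called 5 genes and 1 gene in them, and edgeR with no filter on low counts 2 and 0, none of them a synthetase. No cytosolic gene was among these. In WT against the mutants the log2 differences of the 20 cytosolic genes lay between -0.15 (SARS) and 0.05 (FARSA). Their 95% confidence intervals reached from -0.37 (GARS) to 0.28 (WARS), so the data leave room for differences of that size in either direction. The 3 cytosolic genes with the smallest unadjusted p were SARS, with -0.15 (interval -0.36 to 0.06), CARS, with -0.14 (-0.37 to 0.09), and GARS, with -0.14 (-0.37 to 0.10).

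Of the mitochondrial genes, HARS2, LARS2 and VARS2 had the smallest unadjusted p in WT against the mutants. HARS2 stood at 79.0, 78.7 and 85.2 CPM with GFP, 76.7, 80.2 and 84.4 CPM with WT, 81.7, 84.2 and 101 CPM with ΔGS and 80.9, 82.0 and 87.8 CPM with ΔADAM, and its difference was -0.10 (interval -0.23 to 0.03). LARS2 (leucine) stood at 50.9, 54.9 and 61.0 CPM with GFP, 50.9, 56.1 and 57.8 CPM with WT, 53.0, 48.9 and 51.6 CPM with ΔGS and 48.2, 49.1 and 54.8 CPM with ΔADAM, and its difference was 0.11 (interval -0.04 to 0.25). The ranges of WT and the mutants overlapped in both genes. Within experiments 1, 2 and 3, the log2 difference of WT from the mean of the mutants was -0.08, -0.05 and -0.16 for HARS2 and 0.01, 0.19 and 0.12 for LARS2, of 1 sign in each gene. Both genes were named for a small unadjusted p in this same comparison, so the shared sign adds no support. VARS2 had a difference of -0.10 (interval -0.26 to 0.07).

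Between ΔGS and ΔADAM the cytosolic log2 differences lay between -0.13 (EPRS) and 0.11 (QARS or FARSA), with intervals from -0.41 to 0.34. SARS2 was 0.24 higher with ΔGS than with ΔADAM (interval 0.03 to 0.46), with an unadjusted edgeR p of 0.0298 and an adjusted p of 0.999. It was higher with ΔGS in each of the 3 experiments, but the difference did not survive the adjustment. SARS2 is named for the smallest unadjusted p of the 16 mitochondrial genes here, so its shared sign adds no support. Of the 16, 5 were higher with ΔGS in each experiment and 0 lower. The share of all genes with 1 sign in each experiment was not computed for this comparison. Of all 15159 genes tested, 8153 had a positive log2 fold change here, so these counts are not read as a mitochondrial pattern. No synthetase thus passed the test between the I449A and the P408A/L409P/G419P receptor, which does not show that they act alike.

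Some members have further copies of their transcripts on alternate loci of the genome, and the index used by the authors held them. These copies carried 27.8 to 59.2% of the estimated counts of VARS, 47.9 to 64.9% of those of VARS2, 50% of those of SARS2 in every library and 1.75 to 10.2% of those of CARS. The values above add the copies to the gene. With the primary copy alone, VARS had log2 fold changes of -0.33, -0.62 and -0.57 (edgeR adjusted p = 0.129, 0.0133 and 0.0159) and was called lower with ΔGS, where the summed value was -0.26. VARS2 on the primary copy alone had 0.23, 0.68 and 0.41 (edgeR adjusted p = 0.286, 0.00983 and 0.0492) and was called higher with ΔGS. SARS2 on the primary copy alone had -0.48, -0.34 and -0.59 and CARS 0.93, 1.09 and 1.06, close to the summed values. The share of VARS counts on the copies was 33.8% in the mean of the GFP libraries and 47.6% with ΔGS, and that of VARS2 60.2% with GFP and 49.95% with ΔGS.

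**Figure D5:**
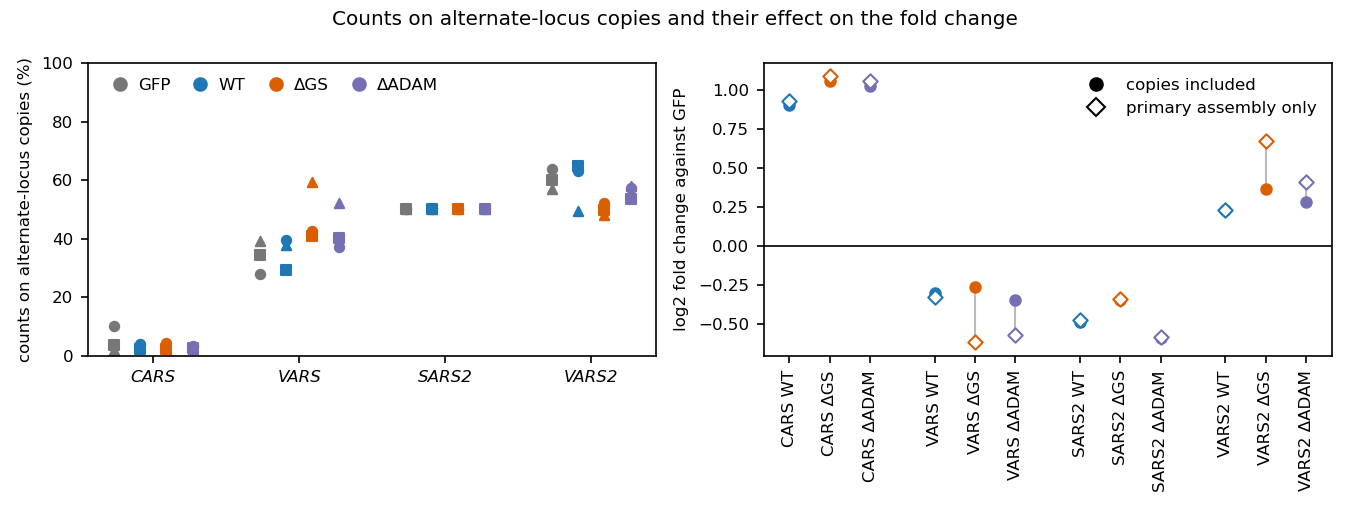
Left, the share of each gene's estimated counts on alternate-locus copies (%) by gene and group, each library as a point, with experiments 1, 2 and 3 as circles, squares and triangles. Right, the log2 fold change against GFP with the copies added (filled circles) and with the primary assembly alone (open diamonds), where VARS with ΔGS goes from -0.26 to -0.62 and VARS2 with ΔGS from 0.36 to 0.68.

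Single transcripts gave less than the sums. When the transcript with the highest mean level stood for each gene in a fit over all transcripts, no member passed, the smallest edgeR adjusted p being 0.128. Over all 68308 transcripts that fit called only 6, 6 and 4 with WT, ΔGS and ΔADAM. A count of 0 among the members is therefore near the background. The leading transcript GARS-201 held 92.0 ± 2.23% of the TPM of GARS with GFP and 88.9 ± 8.31% with ΔGS and 94.5 ± 0.777% with ΔADAM, and its log2 fold changes were 1.10, 1.23 and 1.26. CARS-201 held 63.5 ± 3.54% of CARS and WARS-204 58.0 ± 5.69% of WARS with GFP. Their log2 fold changes were 1.03 with WT and 1.18 with ΔGS for CARS-201 and 1.09, 0.97 and 1.14 for WARS-204, close to those of the summed genes.

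Several members share genomic ground with other genes, and whether strand was used in the counting is not given in the sources used here. HARS and HARS2 lie head to head on chromosome 5 and overlap by 437 bases on opposite strands, and EPRS and IARS2 are 47444 bases apart on chromosome 1. MARS overlaps DDIT3 by 982 bases on the opposite strand, where the counts of DDIT3 were 3.86 to 9.08% of those of MARS. YARS, called with both mutants, overlaps S100PBP by 1387 bases on the opposite strand, with counts of 11.9 to 25.9% of those of YARS. Also on the opposite strand, KARS overlaps TERF2IP by 858 bases (13.2 to 21.7% of its counts) and CARS2 overlaps ING1 by 868 bases (30.5 to 47.5%). SARS2 overlaps MRPS12, a mitochondrial ribosomal protein gene on the opposite strand, by 349 bases, and the counts of MRPS12 were 93.2 to 222% of those of SARS2. EARS2 overlaps UBFD1 by 370 bases on the opposite strand, with counts of 199.9 to 340.1% of those of EARS2. YARS2 overlaps DNM1L by 18161 bases on the opposite strand, with counts of 437 to 693% of those of YARS2. These overlaps are of whole gene spans, and how much of them is transcript sequence was not examined. Reads from transcript sequence shared in this way cannot be told apart without strand. On the same strand, SARS2 overlaps AC011455.2 over 15493 bases (0 to 4.21% of the counts of SARS2) and VARS2 overlaps GTF2H4 over 5865 bases (47.9 to 60.9% of those of VARS2). HARS2 overlaps ZMAT2 over 639 bases (68.2 to 82.9% of those of HARS2) and MARS2 the non-coding AC011997.1 over 3019 bases, also on the same strand. Strand would not resolve transcript sequence shared on the same strand, the extent of which was not examined. The values of SARS2, VARS2, HARS2 and MARS2 are uncertain in that respect. Named pseudogenes of 11 members took at most 0.241% of the counts of their parent gene in any library.

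The synthetases were then set beside other genes of the same pathways. Of 20 genes of the amino acid response, 7, 14 and 14 were called higher with WT, ΔGS and ΔADAM and none lower, with median log2 fold changes of 0.91, 1.14 and 1.17. Of all genes tested 1.81%, 2.92% and 3.27% were called higher. PSAT1, a serine synthesis enzyme, rose by 1.15, 1.31 and 1.29 (edgeR adjusted p = 0.000873, 0.000232 and 0.000234), ASNS, asparagine synthetase, by 1.55, 1.68 and 1.67 (0.00170, 0.000938 and 0.000814) and CTH, a cysteine synthesis enzyme, by 1.43, 1.62 and 1.66 (0.00281, 0.00114 and 0.000880). ATF4 itself had 0.67, 1.07 and 0.98 (edgeR adjusted p = 0.0934, 0.0146 and 0.0176) and was called with both mutants. With the batch term for experiment 1 in place of the replicate block, 0, 0 and 2 of the 20 were called. The list was drawn up with earlier results of these data known, so its counts are not independent evidence.

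No gene was called among the other steps of tRNA charging and elongation, and with 1.81 to 3.27% of all genes called higher and 0.871 to 2.06% lower, a count of 0 in lists of this size is near the background. The lists were the 4 genes of mitochondrial glutaminyl-tRNA and formyl-methionyl-tRNA (QRSL1, GATB, GATC and MTFMT), the 4 of selenocysteinyl-tRNA, the 6 cytosolic elongation factor genes and the 9 mitochondrial translation factor genes. At an unadjusted edgeR p under 0.05 there were 1, 0 and 1 genes in the first list, 1, 1 and 2 in the last and 0 in the others. GATB, a subunit of the amidotransferase, had -0.23, -0.17 and -0.21, EEF1A1, which brings charged tRNA to the ribosome, -0.08, 0.01 and -0.06, and PSTK, the kinase that acts on seryl-tRNA of selenocysteine, 0.02, 0.32 and 0.13. MTIF2, a mitochondrial initiation factor, was the only gene of these lists to pass the edgeR adjusted p, with ΔADAM (0.29, 0.0459).

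Of 8 melanocyte lineage genes 0, 2 and 2 were called lower with WT, ΔGS and ΔADAM, namely MITF, the master regulator of the lineage, at -0.81, -1.01 and -1.06 (edgeR adjusted p = 0.0627, 0.0192 and 0.0154) and DCT, a pigment enzyme, at -1.02, -1.24 and -1.24 (0.0777, 0.0270 and 0.0254). Of all genes tested 0.871%, 1.93% and 2.06% were called lower. Under the batch term for experiment 1, 0, 0 and 1 of the 8 were called lower. SOX10 had -0.21, -0.32 and -0.38, and only the last passed (edgeR adjusted p = 0.0429). The 8 genes summed to 1643 to 1989 TPM with GFP, 1068 to 1987 with WT, 1096 to 1605 with ΔGS and 1103 to 1659 with ΔADAM, so the WT range overlapped GFP. Their part in the result was not tested.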

How the data were processed

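RNA was sequenced from 12 libraries (4 groups, 3 experiments) with a stranded mRNA kit, as paired reads of 75 bases. The authors trimmed the reads and quantified them with kallisto 0.46.0 (with FastQC 0.11.9 and Trimmomatic 0.33, per the submitters' processing notes) on Ensembl 96 transcripts of GRCh38, and deposited an estimated count and a TPM value per transcript. These values were not otherwise normalised. From there, transcripts were added up per gene through GENCODE 29. Of 188753 transcripts 184259 were matched, 14462 of them on alternate loci. Sums were rounded and genes kept by filterByExpr (minimum count 10, minimum total 15). They were fitted over all 12 libraries in edgeR 4.0.16 (R 4.3.3) with TMM scaling, the group and the experiment as a block. CPM were scaled by TMM and log2 CPM carry a prior count of 2. The depth of the GFP library of experiment 1, 4008293 counts, limits its precision.

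The labels number shared experiments, and the pairing rests on those numbers. Deviations from the group means correlated within an experiment at 0.0497 (GFP with ΔADAM, experiment 1) to 0.546. The authors corrected the batch difference between experiment 1 and the others with batchelor and tested with DESeq2. Here a batch term for that split was fitted in edgeR as an alternative, as were DESeq2 1.42.0 and limma 3.58.1 on log2(TPM + 1) and log2(TPM + 0.1). Per-library values were given for the called members, for the 3 uncalled members per compartment with the largest fold changes and for the 3 with the smallest p in WT against the mutants. The script was tested on simulated data. The members and lists were chosen with earlier results of these data known.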

Additional observations from a re-analysis of the deposited data

How the results depend on the processing

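Of 270 alternative values of the 20 main results, 208 kept their direction and stayed close to the reported value, as did 216 of the 240 values from fits that each left out 1 library, and no called member reversed. Triplets below are WT, ΔGS and ΔADAM against GFP. Without the replicate block, a batch term for experiment 1 gave 0, 1 and 1 called cytosolic genes and a mitochondrial median with ΔADAM of -0.12, and no batch term at all gave 0, 0 and 0 cytosolic and 0 mitochondrial genes and the same median of -0.12. Without the fold threshold, 9, 9 and 12 cytosolic and 2, 3 and 4 mitochondrial genes passed in either direction. By that rule 2.42%, 4.72% and 5.17% of all genes were higher and 1.85%, 4.66% and 5.65% lower. The mitochondrial call with ΔADAM fell to 0 with the size factors of DESeq2 (median -0.10), in DESeq2 (-0.10), in limma on log2(TPM + 1) and on log2(TPM + 0.1) (-0.078 and -0.081), with no filter (-0.090), with at least 10 counts (-0.10), in experiments 2 and 3 alone (-0.090) and with transcripts (0.023). Both limma fits gave cytosolic medians of 0.36, 0.29 and 0.37, cytosolic medians of -0.059 and mitochondrial ones of -0.015 and -0.016 in ΔGS against ΔADAM, and mitochondrial medians of 0.053 and 0.056 in WT against the mutants. With the pseudocount of 0.1, 2 cytosolic genes were called with WT, against 3 in experiments 2 and 3 alone and 1 when only the groups compared were fitted (mitochondrial median with ΔADAM -0.12). With no filter the cytosolic median with ΔADAM was 0.26. Single transcripts gave 0, 0 and 0 cytosolic calls with medians of 0.50, 0.31 and 0.45, a mitochondrial median with ΔGS of 0.15 and one of -0.010 in WT against the mutants. The primary assembly alone, chosen after seeing the data, called 1 mitochondrial gene with ΔGS, and with that batch term 0, 1 and 1 cytosolic genes and 1 mitochondrial gene with ΔGS (median with ΔADAM -0.12). Leaving out 1 library, cytosolic calls ranged over 2 to 6, 5 to 6 and 5 to 6 and mitochondrial calls over 0 to 0, 0 to 0 and 0 to 1. Cytosolic medians ranged over 0.22 to 0.27, 0.18 to 0.25 and 0.22 to 0.27, and mitochondrial ones over -0.09 to -0.04, -0.08 to -0.03 and -0.14 to -0.077. In WT against the mutants they ranged over -0.08 to -0.01 (cytosolic) and -0.021 to 0.025 (mitochondrial), and in ΔGS against ΔADAM over -0.02 to 0.04 and 0.03 to 0.08. The cause of these shifts was not tested. The shallow GFP library of experiment 1 limits the depth behind every comparison with GFP.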
